A study of Musca domestica with 24 samples.

Results

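Testes of the house fly (Musca domestica) strain IsoCS were compared between males raised at a developmental temperature of 29 °C and males raised at 18 °C. The comparison rests on 6 of the 24 libraries of the series, 3 from IsoCS testes at 29 °C and 3 from IsoCS testes at 18 °C, chosen by their labelled strain, tissue and temperature. The other libraries, 6 from IsoCS heads and 12 from heads and testes of the strain CSrab at the same temperatures, serve here as points of comparison. Strains IsoCS and CSrab are isogenic for the rest of the genome and carry different proto-Y chromosomes, per the series' design text. The labels name neither the proto-Y of a strain nor the age of the flies, and they do not give the number of flies behind a library. The replicates are described as biological.

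The insect testis holds germ cells at every step, from stem cells through spermatocytes and meiosis to elongating spermatids and sperm, enclosed in somatic cyst cells and a muscular sheath. Spermatocytes transcribe a large set of genes that few other tissues use, and much of that mRNA is stored for translation after meiosis. Male germ cells of flies are sensitive to warm rearing, which lowers male fertility in Drosophila. House fly proto-Y chromosomes are young chromosomes that carry the male determiner, and their frequencies in natural populations follow climate. The series crosses strain with rearing temperature. As whole testes were sequenced, fewer cells of a type and less RNA per cell cannot be told apart in any result here.

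The deposited values are raw counts of reads per gene. The IsoCS testis libraries held 40005841, 24992406 and 32299686 counts at 29 °C, against 32970057, 20609110 and 26217670 counts at 18 °C, and between 14696 and 15139 genes with at least 1 count. Expression is given as CPM, counts scaled to a common library size after TMM normalisation, and genes were tested by the quasi-likelihood test of edgeR, with p-values adjusted over all genes tested (Benjamini-Hochberg). A gene is said to be called, or to have risen or fallen at 29 °C, when its adjusted p was under 0.05. The labelled tissue could not be checked against textbook markers, because none of the germ-line names searched (vasa, nanos, bam, boule, twine, don juan and others) occurs among the symbols of the table, in which most genes carry only a LOC identifier.

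Replicate 3 at 29 °C stood apart from the other 2 libraries of its group. Across 13271 genes, its log2 CPM correlated at r = 0.928 with 29 °C replicate 1 and at r = 0.908 with 29 °C replicate 2, and at r = 0.944, 0.946 and 0.964 with the 18 °C replicates. The other 29 °C pair had r = 0.934, and the 18 °C pairs had r between 0.979 and 0.981. These are correlations across genes within pairs of libraries, and genes are not independent replicates. On the first principal component of the 6 libraries, which held 45.7% of the variance, the 29 °C libraries scored 51.9, 86.9 and −26.9, against −34.1, −26.4 and −51.3 for the 18 °C libraries. Replicate 3 at 29 °C therefore lay among the 18 °C libraries on this axis.

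To place each library gene by gene, genes were called without it, and its log2 CPM was set on a scale where 0 is the mean of the other temperature and 1 is the mean of the 2 remaining libraries of its own group. On the 3417 genes called without it, 29 °C replicate 3 had a median position of 0.321. It lay at 0.602 on the 1511 genes higher at 29 °C and at 0.194 on the 1906 genes lower at 29 °C. The median was 0.858 for 29 °C replicate 1 and 1.01 for 29 °C replicate 2, and 0.971, 0.961 and 0.784 for the 18 °C replicates. In that order these medians rest on 792, 887, 370, 439 and 741 genes, called in fits that kept 29 °C replicate 3. The libraries are thus compared on unlike sets of genes. Replicate 3 was on the 29 °C side of 0 for 83.5% of the higher genes and 73.7% of the lower genes. The 18 °C libraries that set 0 also took part in calling these genes, and no baseline was computed. These shares therefore do not by themselves show that replicate 3 shared the direction of its group. Its position was not the same for all genes: among the genes higher at 29 °C it was 0.754 for those at least 10 times more abundant in testis than in head (508 genes), 0.513 for those within 10 times (887 genes) and 0.0354 for those more than 10 times more abundant in head (116 genes). Among the genes lower at 29 °C the order was the opposite, at 0.168 (297 genes), 0.193 (1573 genes) and 0.635 (36 genes) for the same classes.

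**Figure D1:**
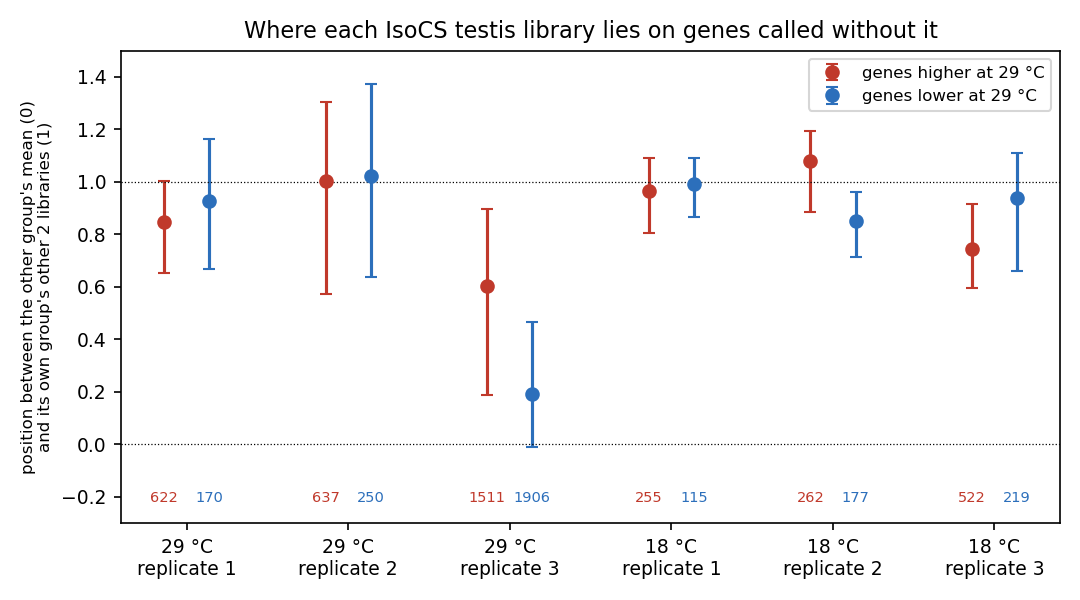
Median position of each IsoCS testis library (points, with the quartiles as bars) on the genes called without it, between the other temperature's mean (0) and the mean of the 2 remaining libraries of its own group (1), for genes higher (red) and lower (blue) at 29 °C. The small numbers give the genes behind each point. Replicate 3 at 29 °C has a median of 0.602 on higher and 0.194 on lower genes, and the other 5 libraries have medians of at least 0.743.

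The strain of the 29 °C libraries was checked on 462 genes that differed by more than 4-fold between strains at 18 °C. On a scale from IsoCS (0) to CSrab (1), the 29 °C libraries lay at medians of 0.0435, 0.0420 and 0.0654, and the 18 °C libraries at −0.0355, 0.00914 and 0.00396. The IsoCS 18 °C libraries set the 0 of this scale and took part in the choice of the genes. Their positions near 0 were thus fixed in advance, and the check bears on the 29 °C libraries alone. Replicate 3 at 29 °C carried the IsoCS pattern like the other 29 °C libraries. What sets it apart was not tested, and the counts of genes below are given with all 6 libraries and without it.

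With all 6 libraries, 1383 of 13271 genes were called, or 10.4% of those tested. Of these, 878 were higher at 29 °C (6.62%) and 505 were lower (3.81%). A change of more than 2-fold was seen for 410 of the higher and 267 of the lower genes, and a change of more than 4-fold for 151 and 88. The median log2 change of all genes was −0.0016, so the counts are set against a centre near 0. Without 29 °C replicate 3, 3459 of 13505 genes were called (25.6%), 1548 higher (11.5%) and 1911 lower (14.2%). The share of higher genes among the calls was 63.5% with all 6 libraries and 44.8% without that library. In fits without that library chosen after the data were seen, the share was 49.0% of 3416 calls under DESeq2 size factors, 49.6% of 4135 under the DESeq2 Wald test and 52.3% of 1283 with only the 5 remaining IsoCS testis libraries in the fit, so which direction held the majority depended on the fit.

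The genes called both ways numbered 1308, which is 94.6% of the 1383 and 37.8% of the 3459, and all 1308 had the same sign. Of the 2109 further genes called only without replicate 3 and tested in both fits, 680 were higher and 1429 lower. The median position of replicate 3 was 0.801 on the 1308 genes and 0.101 on the 2109, a contrast that the choice of the genes by their calls with and without that library brings with it. At the other end, leaving out 18 °C replicate 1, replicate 2 or replicate 3 gave 370, 441 and 746 calls, and leaving out 29 °C replicate 1 or 2 gave 797 and 892. Without CSrab testis 18 °C replicate 2, which is in neither group compared and enters through the filter on low counts and the shared estimate of spread, the count was 863.

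**Figure D2:**
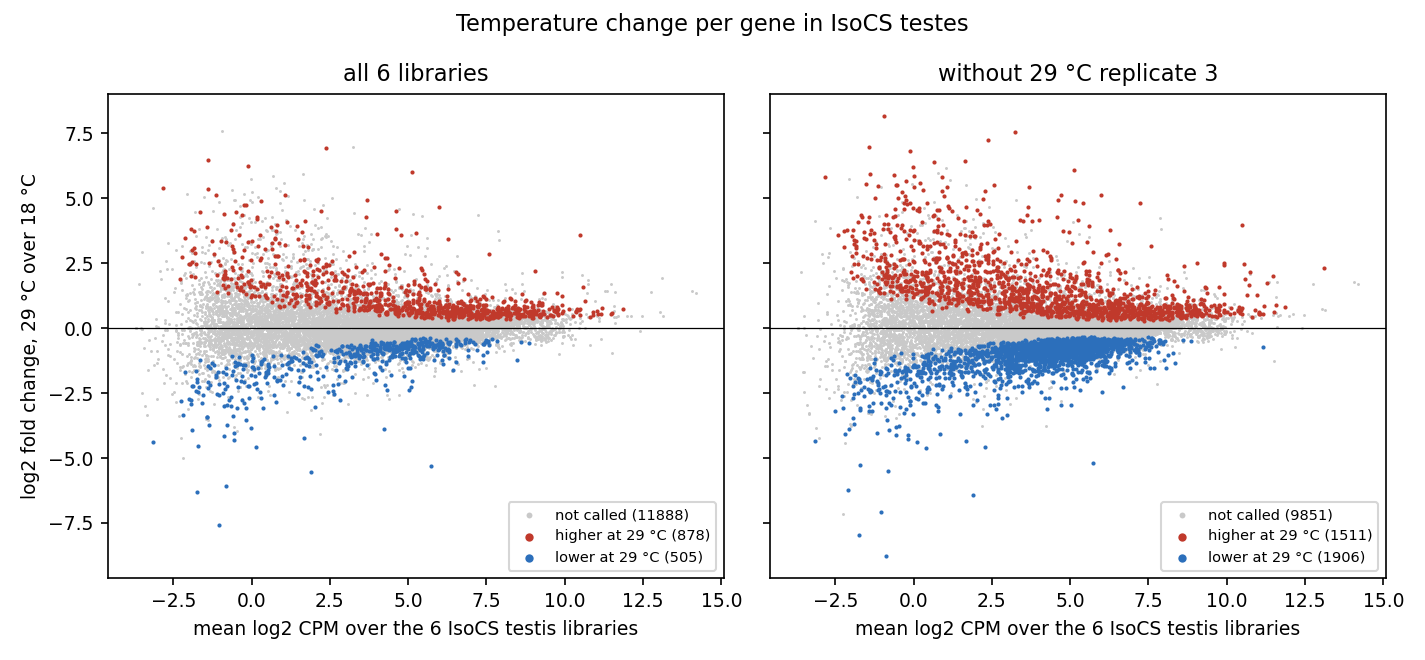
Log2 fold change (29 °C over 18 °C, vertical axis) of each tested gene in IsoCS testes against its mean log2 CPM over the 6 libraries (horizontal axis), with all 6 libraries on the left and without 29 °C replicate 3 on the right; the right panel holds the genes tested in both fits. Red and blue points are the genes called higher and lower at 29 °C, 878 and 505 on the left and 1511 and 1906 on the right, and the added blue points lie at moderate levels with changes of moderate size.

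The abundance and tissue of expression of a gene, taken from the CSrab libraries, which the IsoCS contrast does not use, went with the direction of the change. Of 2386 tested genes more than 10 times as abundant in testis as in head, 406 were higher at 29 °C (17.02%) and 90 lower (3.77%), with a median log2 change of 0.25. Of 10084 genes within 10 times, 447 were higher (4.43%) and 393 lower (3.90%), with a median of −0.05. Of 801 genes more than 10 times as abundant in head, 25 were higher (3.12%) and 22 lower (2.75%). Set against 6.62% higher and 3.81% lower among all genes, the testis-biased genes held a larger share of higher calls and a like share of lower calls.

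Within the testis-biased genes, the abundant members held the larger share of higher calls with all 6 libraries. Of 584 such genes at 100 CPM or more in CSrab testes, 172 were higher at 29 °C (29.5%) and 0 were lower, with a median log2 change of 0.42. Of 1802 below 100 CPM, 234 were higher (13.0%) and 90 lower (4.99%), with a median of 0.12. Among 1471 genes at 100 CPM or more and within 10 times between the tissues, 128 were higher (8.70%) and 34 lower (2.31%). The 99 genes over 1000 CPM in CSrab testes had 28 higher (28.3%) and 0 lower, with a median of 0.52. The members of a class share libraries and scaling and are not replicates of a condition, so these shares are descriptions.

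The same classes without 29 °C replicate 3 gave 519 higher (21.3%) and 298 lower (12.2%) testis-biased genes, and 904 higher (8.85%) and 1575 lower (15.4%) genes within 10 times. The head-biased class had 125 higher (14.7%) and 38 lower (4.47%) of 850, with a median log2 change of 0.36, against 0.20 in the testis-biased class and 11.5% higher and 14.2% lower among all genes. In that fit the larger share of higher calls was thus not particular to testis-biased genes. Over 1000 CPM in CSrab testes, 37 were higher (37.4%) and 1 was lower. Among genes under 1 CPM and at 1 to 10 CPM there, 13.2% and 12.1% were higher, so the larger share was not particular to abundant genes either. The median change of the testis-biased genes was between 0.18 and 0.33, and that of the genes over 1000 CPM between 0.43 and 0.61, over 9 settings that covered 2 other scalings, a replicate block within strain and the omission of each IsoCS testis library. The share of higher calls in the testis-biased class moved more, between 5.39% and 21.3% over the same settings, and was lowest without 18 °C replicate 2, where 1.95% of all genes were higher. Of the 584 abundant testis-biased genes, 16 were lower (2.74%) without 29 °C replicate 3 and 4 were lower with the block.

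**Figure D3:**
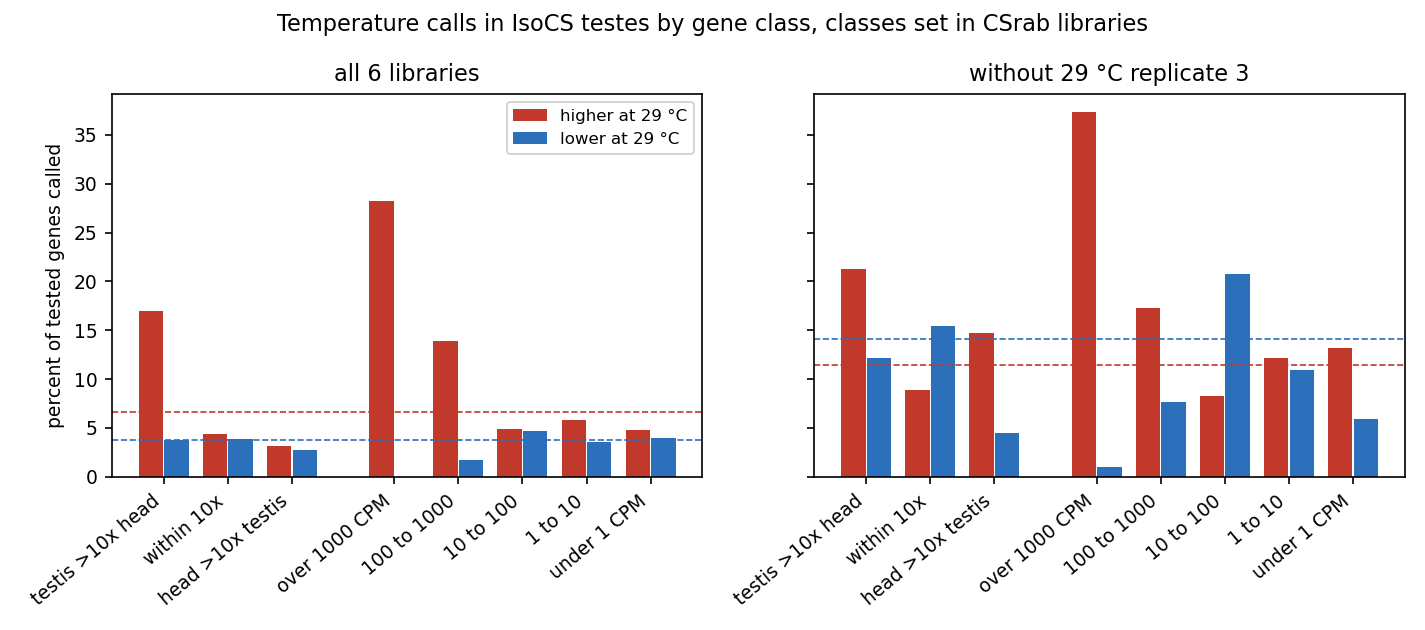
Percent of tested genes called higher (red) and lower (blue) at 29 °C in IsoCS testes, by gene class set in CSrab libraries: 3 classes of testis against head level on the left of each panel and 5 classes of CSrab testis level on the right. Dashed lines mark the shares over all genes, 6.62% and 3.81% with all 6 libraries and 11.5% and 14.2% without 29 °C replicate 3. The red bars for testis-biased and for abundant genes stand above the red line in both panels. Without 29 °C replicate 3 those for head-biased genes (14.7%), for genes under 1 CPM (13.2%) and for genes at 1 to 10 CPM (12.1%) stand above it too.

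Calls were spread over the chromosomes. By Muller element, the chromosome arms that fly genomes share, higher and lower calls were 126 and 52 of 1881 genes on element A (6.70% and 2.76%), 107 and 66 of 1718 on B (6.23% and 3.84%), and 146 and 76 of 2191 on C (6.66% and 3.47%). Elements D and E had 125 and 70 of 1910 (6.54% and 3.66%) and 143 and 102 of 2595 (5.51% and 3.93%). Element F, a small element, had 3 and 2 of 35, and the genes with no element had 228 and 137 of 2941 (7.75% and 4.66%). The shares of higher calls lay between 5.51% and 7.75% outside element F, on both sides of the 6.62% of all genes. Lower calls outnumbered higher calls on every element without 29 °C replicate 3, with 229 higher and 286 lower on A, 180 and 248 on B, 252 and 315 on C, 205 and 300 on D, 246 and 441 on E, and 5 and 7 on F. The genes with no element had 431 higher and 314 lower calls in that fit (14.2% and 10.3%). By gene type in the RefSeq table, 51 of 402 tested lncRNAs were higher (12.7%) and 25 lower (6.22%), against 709 (6.37%) and 387 (3.47%) of 11137 protein-coding genes. Without replicate 3 the shares were 18.8% higher and 12.8% lower for lncRNAs, against 11.1% and 14.9% for protein-coding genes, so the larger share of lower lncRNA calls was not seen in that fit.

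Among the 24 genes with the largest called changes (12 in each direction, at least 5 CPM in the higher group and no overlap between temperatures), the increase of LOC101894819 on element B was called under all 27 alternative settings. It had 280.2, 317 and 247 CPM at 29 °C, against 5.23, 5.297 and 2.62 CPM at 18 °C. No role is assigned to the gene in the files used. Every 29 °C library stood at least 46.6-fold above every 18 °C library. The log2 change was 6.005 ± 0.36 (SE, adjusted p = 4.08e-05), and 29 °C replicate 3 did not stand apart on it.

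In CSrab testes the same gene had 3.64, 1.68 and 2.91 CPM at 29 °C, against 2.62, 2.07 and 2.02 CPM at 18 °C, and those groups overlap. In IsoCS heads it had 72.4, 63.4 and 79.6 CPM at 29 °C, against 62.1, 71.5 and 72.4 CPM at 18 °C, with no change called (log2 change 0.06, adjusted p = 0.949). The call rate in IsoCS heads was 1.59% over all genes (1.04% higher and 0.551% lower). The temperature effect in IsoCS testes exceeded that in CSrab testes, with a log2 difference between strains of 5.71 ± 0.46 (SE, adjusted p = 0.0016). It also exceeded that in IsoCS heads, with a log2 difference between tissues of 5.95 ± 0.38 (SE, adjusted p = 6.12e-08).

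Another 3 increases kept their call in each of the 12 fits that left out 1 testis library. LOC101890079 (element C) had 11.6, 17.3 and 6.73 CPM at 29 °C, against 0.436, 0.177 and 0.365 CPM at 18 °C, a log2 change of 5.14 ± 0.53 (SE, adjusted p = 0.00111). LOC101901674 (element D) had 11.1, 15.4 and 5.61 CPM at 29 °C, against 1.03, 0.574 and 0.465 CPM at 18 °C, a log2 change of 3.93 ± 0.46 (SE, adjusted p = 0.00197). In both, replicate 3 was the lowest of the 29 °C libraries and still far above the 18 °C libraries. LOC101901275 (no element) had 4.47, 13.1 and 1.73 CPM at 29 °C, against 0.572, 0.309 and 0.398 CPM at 18 °C, a log2 change of 3.88 ± 0.70 (SE, adjusted p = 0.00976), with a wider spread at 29 °C that reached 1.73 CPM in replicate 3.

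The remaining 8 of the 12 increases lost their call in some of these fits. Replicate 1 at 29 °C held by far the highest level of 4 of them. LOC101888850 (no element) had 1621, 24.8 and 123 CPM at 29 °C, against 24.2, 24.2 and 21.3 CPM at 18 °C, a log2 change of 4.66 ± 1.26 (SE, adjusted p = 0.0418). Its 29 °C replicate 2 barely exceeded the 18 °C libraries. LOC101888723 (element C) had 437, 25.5 and 48.4 CPM at 29 °C, against 5.85, 10.7 and 6.04 CPM at 18 °C. LOC101891403 (element C) had 357, 9.29 and 22.05 CPM at 29 °C, against 6.78, 3.002 and 2.99 CPM at 18 °C. In these genes too, 29 °C replicate 2 was the lowest of its group and replicate 1 stood far above the rest. LOC109613439 (element C) had 218, 5.84 and 36.1 CPM at 29 °C, against 4.74, 4.86 and 3.65 CPM at 18 °C. Without 29 °C replicate 1 all 4 lost their call, and their log2 changes were 1.70, 2.33, 1.91 and 2.28, against 4.66, 4.50, 4.92 and 4.29 with all 6 libraries. All 4 also lost it with the replicate block within strain, with adjusted p between 0.0531 and 0.16.

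LOC101894193 (element C) was carried by 29 °C replicate 2, with 3.41, 65.3 and 1.88 CPM at 29 °C, against 0.762, 1.77 and 1.56 CPM at 18 °C. Its log2 change was 4.11 ± 1.14 (SE, adjusted p = 0.0452), and 0.98 without that library, where it was not called, as it was not with the replicate block (adjusted p = 0.113). LOC101898085 (element B) had 6.03, 24.9 and 0.4703 CPM at 29 °C, against 0.191, 0.177 and 0.0332 CPM at 18 °C. LOC101895675 (element A) had 4.999, 13.7 and 2.18 CPM at 29 °C, against 0.109, 0.486 and 0.133 CPM at 18 °C. LOC109612144 (no element) had 25.9, 40.8 and 6.41 CPM at 29 °C, against 1.25, 1.19 and 0.763 CPM at 18 °C. In these 3 genes the 29 °C libraries had the same order, with replicate 2 highest and replicate 3 lowest, and the groups did not overlap. Each of the 8 genes lost its call when any 1 of the 18 °C libraries was left out, although the fitted changes of the 3 last-named genes stayed at 4.31 or more on the log2 scale in those fits. LOC101898085 and LOC109612144 kept their call when any 1 of the other testis libraries was left out.

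**Figure D4:**
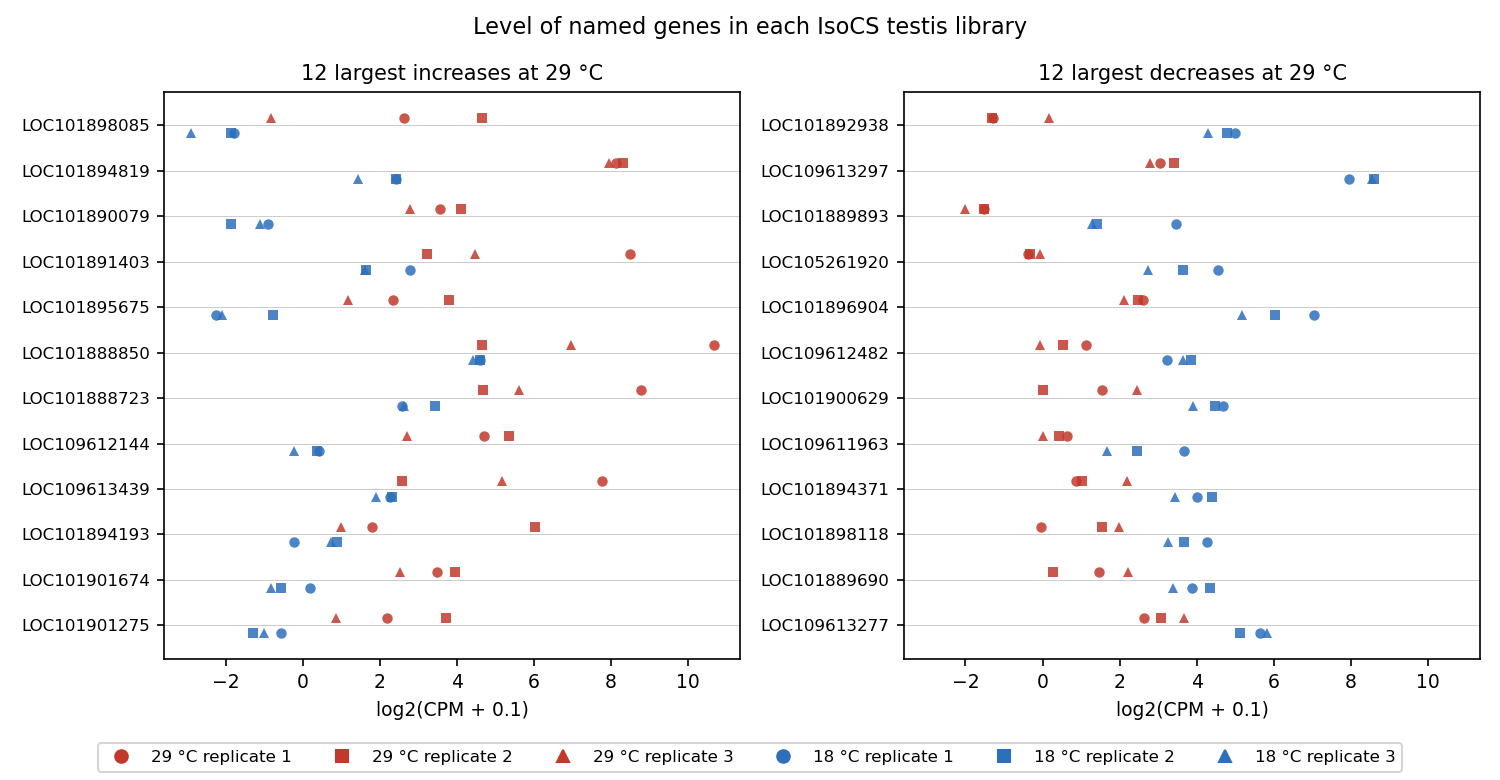
Level of the 12 largest called increases (left) and decreases (right) in each IsoCS testis library, as log2(CPM + 0.1), with 29 °C in red above 18 °C in blue for each gene and a symbol for each replicate number. LOC101894819 and LOC109613297 show tight groups far apart, and several genes on the left, such as LOC101888850 with 1621 CPM in 29 °C replicate 1, depend on a single library.

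Of the 12 largest decreases, 6 kept their call in each fit that left out 1 library. LOC109613297 (element A) had 8.098, 10.4 and 6.76 CPM at 29 °C, against 247, 390.1 and 372 CPM at 18 °C. Every 29 °C library was at least 23.7-fold below every 18 °C library. Its log2 change was −5.32 ± 0.71 (SE, adjusted p = 0.00321), called under all 27 alternative settings. LOC101892938 (no element) had 0.307, 0.2997 and 1.03 CPM at 29 °C, against 31.7, 27.4 and 19.6 CPM at 18 °C, a log2 change of −5.54 ± 0.57 (SE, adjusted p = 0.00111). Replicate 3 at 29 °C was the library nearest to the 18 °C level in this gene and remained far below it. LOC105261920 (element A) had 0.6702, 0.699 and 0.852 CPM at 29 °C, against 23.4, 12.5 and 6.503 CPM at 18 °C, a log2 change of −4.24 ± 0.47 (SE, adjusted p = 0.00155). Its 29 °C libraries lay close together and its 18 °C libraries were spread.

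LOC109613277 (no element) had 6.06, 8.34 and 12.6 CPM at 29 °C, against 49.4, 34.9 and 56.3 CPM at 18 °C, a log2 change of −2.38 ± 0.39 (SE, adjusted p = 0.00661). In CSrab testes, where 6.73% of all genes were called (3.23% higher and 3.5% lower), it fell as well, with 1.78, 3.09 and 2.32 CPM at 29 °C, against 15.4, 19.97 and 37.2 CPM at 18 °C and a log2 change of −3.34 ± 0.41 (SE, adjusted p = 0.00219). The lncRNA LOC109611963 (no element) had 1.45, 1.25 and 0.911 CPM at 29 °C, against 12.7, 5.39 and 3.09 CPM at 18 °C, a log2 change of −2.55 ± 0.44 (SE, adjusted p = 0.00788). For this lncRNA CSrab testes had 51.9, 56.1 and 44.9 CPM at 29 °C, against 53.3, 45.5 and 51.2 CPM at 18 °C, well above either IsoCS group, and the difference between strains in its temperature effect was not called (adjusted p = 0.128). LOC101894371 (element B) had 1.73, 1.95 and 4.47 CPM at 29 °C, against 16.01, 20.8 and 10.7 CPM at 18 °C, a log2 change of −2.53 ± 0.45 (SE, adjusted p = 0.00876), with replicate 3 the highest of the 29 °C libraries.

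The other 6 decreases, LOC101889893, LOC101896904, LOC109612482, LOC101900629, LOC101898118 and LOC101889690, had fitted log2 changes between −4.59 and −2.42 and adjusted p between 0.0214 and 0.0468. In each the 29 °C libraries all lay below the 18 °C libraries. Each lost its call without 18 °C replicate 1 or 2 and without 29 °C replicate 1. LOC101896904 also lost it without 29 °C replicate 3, at a log2 change of −3.76 (adjusted p = 0.0634). With the replicate block LOC101898118 was not called (adjusted p = 0.0605). LOC101896904 had 5.95, 5.49 and 4.204 CPM at 29 °C, against 131, 65.5 and 36.1 CPM at 18 °C, with a wide spread at 18 °C.

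In the matching contrasts of CSrab testes and IsoCS heads, whose groups share no library with the IsoCS testis groups, the 12 increases had a positive fitted temperature change in CSrab testes for 11 genes and in IsoCS heads for 7. The 12 decreases had a negative one for 8 genes in CSrab testes and for 7 in IsoCS heads. In every IsoCS head library LOC101888723, LOC109612144, LOC109613439 and LOC109611963 had 0 CPM, and LOC101890079 and LOC109613297 had reads in a single head library. The signs of their fitted head changes therefore carry no information. Over all genes tested the median log2 change was 0.016 in CSrab testes and 0.074 in IsoCS heads. The counts of signs are descriptions. Replicate 3 was the 29 °C library nearest to the 18 °C level for 8 of the 12 increases and 7 of the 12 decreases.

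The genes called only without 29 °C replicate 3 were chosen by their edgeR calls with and without that library. A departure of the library from its group on them comes in part with that choice, and their values are given as descriptions. LOC101889776 (no element) had 524, 774 and 3 counts at 29 °C, against 1, 0 and 0 counts at 18 °C before scaling. Replicates 1 and 2 averaged at least 254.9-fold above a floor of 3 counts per library at 18 °C, and replicate 3 did not exceed it. LOC101897266 (element D) had 123, 350 and 0 counts at 29 °C, against 0, 1 and 1 counts at 18 °C. LOC101899290 (element E) had 26, 190 and 3 counts at 29 °C, against 0, 0 and 1 counts at 18 °C. In these genes replicates 1 and 2 averaged at least 100.05-fold and 48.9-fold above the same floor, with more counts in replicate 2. All 3 genes passed the filter on low counts only without replicate 3, through the 2 libraries in which they were high, so their calls are no support for a change. LOC101891077 (no element) had 15.7, 2676 and 0.118 CPM at 29 °C, against 0.735, 12.4 and 8.69 CPM at 18 °C, with a level in 29 °C replicate 2 that no other library approached. Its log2 change was 7.54 without replicate 3 (adjusted p = 0.0219) and 6.95 with it (adjusted p = 0.104).

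Among the decreases called only without replicate 3, LOC101898495 (element E) had 0.614, 0.4496 and 15.8 CPM at 29 °C, against 13.04, 11.7 and 14.001 CPM at 18 °C, with replicate 3 above all 18 °C libraries. Its log2 change was −4.57 without replicate 3 (adjusted p = 0.00201) and −1.20 with it (adjusted p = 0.473). LOC109613519 (element E) had 3.1, 0.4995 and 19.8 CPM at 29 °C, against 17.1, 17.5 and 22.4 CPM at 18 °C, and its change was −3.35 without replicate 3 and −1.28 with it. LOC101899966 (element E) and LOC101889529 (element B) changed by −3.32 and −3.32 without replicate 3 (adjusted p = 0.0191 and 0.0036), with replicate 3 again the highest of the 29 °C libraries. With all 6 libraries their changes were −2.25 and −2.07 (adjusted p = 0.0939 and 0.0670). The DESeq2 Wald test called both with all 6 libraries (adjusted p = 0.0347 and 0.00997). For LOC101889529, replicate 3 still lay below every 18 °C library.

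The most abundant called genes changed by less. Of the 5 most abundant increases, LOC109613171 (no element) moved most, with 7087, 7889.6 and 1931 CPM at 29 °C, against 353, 752 and 318 CPM at 18 °C. Replicate 3 was well below the other 29 °C libraries and still above all 18 °C libraries. The call was lost without any 1 of the 18 °C libraries. Its log2 change was 3.57 ± 0.79 (SE, adjusted p = 0.0212), and 3.98 without replicate 3 (adjusted p = 0.00716). In CSrab testes it had 5749.9, 2377 and 1714 CPM at 29 °C, against 336, 753 and 1963 CPM at 18 °C, groups that overlap, and in IsoCS heads no library exceeded 9.58 CPM.

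The other 4 were LOC101893663 (element D), LOC101900995 (element C), LOC105262461 (element C) and LOC101894661 (element D). LOC101893663 had 4149.8, 5841 and 4360.0 CPM at 29 °C, against 2754, 2678 and 3192 CPM at 18 °C, a log2 change of 0.73 ± 0.16 (SE, adjusted p = 0.0219). LOC105262461 had 2959, 3864 and 3589 CPM at 29 °C, against 2362, 2099 and 2662 CPM at 18 °C, a log2 change of 0.55 ± 0.14 (SE, adjusted p = 0.0386), and LOC101900995 and LOC101894661 had changes of 0.59 and 0.78 (adjusted p = 0.0467 and 0.0464). No IsoCS head library exceeded 0.745 CPM for any of the 4. Each stood higher in all 29 °C libraries than in all 18 °C libraries, and each lost its call without 18 °C replicate 1 or without 18 °C replicate 2. With the replicate block within strain none of the 4 was called (adjusted p = 0.0574, 0.101, 0.0913 and 0.0657 in the order named). Without 29 °C replicate 3 the change of LOC105262461 was 0.52 (adjusted p = 0.0529), and the other 3 kept their call.

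The 5 most abundant decreases were LOC101887644 (element A), LOC101894757 (element E), LOC101896253 (element C), LOC101897600 (element A) and LOC101896950 (element B). LOC101887644 had 386, 423 and 343 CPM at 29 °C, against 669, 548 and 507 CPM at 18 °C, a log2 change of −0.58 ± 0.14 (SE, adjusted p = 0.0262). LOC101894757 had 267, 323 and 139 CPM at 29 °C, against 552, 758 and 407 CPM at 18 °C, a log2 change of −1.24 ± 0.35 (SE, adjusted p = 0.048), and it fell in CSrab testes too, with 179, 116 and 83.9 CPM at 29 °C, against 319, 308 and 337 CPM at 18 °C and a change of −1.35 ± 0.35 (SE, adjusted p = 0.0459). The other 3 had log2 changes of −0.55, −0.48 and −0.40. All 5 had over 100 CPM in every IsoCS head library. With the replicate block LOC101887644, LOC101896253 and LOC101896950 were not called (adjusted p = 0.0535, 0.0656 and 0.0719). Without 18 °C replicate 1 or replicate 2 none of the 5 was called, and without 29 °C replicate 3 LOC101894757 and LOC101896253 were not (adjusted p = 0.0554 and 0.0513).

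Whether the temperature effect differed from that in the companion strain was tested by the interaction, the effect in IsoCS testes minus that in CSrab testes. It was called for 33 genes (0.249% of those tested), 20 with a higher (0.151%) and 13 with a lower (0.098%) effect in IsoCS. At an unadjusted p under 0.05 there were 1337. Without 29 °C replicate 3, 123 were called (0.911%), 62 higher (0.459%) and 61 lower (0.452%), all 33 among them. In 23 of the 33 the fitted changes of the strains had opposite signs. With the replicate number as a block within strain 3 genes were called, LOC101894819, LOC109612782 and LOC101899041, the last named here after its values were seen.

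In IsoCS testes LOC109612782 (element A) had 4.08, 3.05 and 7.29 CPM at 29 °C, against 1.55, 1.46 and 1.73 CPM at 18 °C, a log2 change of 1.61 ± 0.30 (SE, adjusted p = 0.0118). In CSrab testes it had 4.31, 4.68 and 3.798 CPM at 29 °C, against 27.1, 41.3 and 34.5 CPM at 18 °C, a log2 change of −3.01 ± 0.31 (SE, adjusted p = 0.00122). It was therefore higher at 29 °C in IsoCS and lower at 29 °C in CSrab, where the 18 °C level stood alone above the other 3 groups. The interaction was 4.61 ± 0.43 (SE, adjusted p = 0.00381) and was called under all 18 alternatives tried for it. LOC101893483 (element A) had a like pattern. In IsoCS testes it had 0.8098, 0.4496 and 1.82 CPM at 29 °C, against 0.354, 0.441 and 0.531 CPM at 18 °C, groups that overlap. In CSrab testes it had 1.14, 0.817 and 0.549 CPM at 29 °C, against 5.81, 8.402 and 6.62 CPM at 18 °C, groups far apart. Its interaction was 4.27 ± 0.68 (SE, adjusted p = 0.0385), with an adjusted p of 0.0225 without IsoCS 29 °C replicate 3. It lost its call in 10 of the 12 fits that left out 1 library.

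LOC109613297 fell in IsoCS testes under every setting tried. In CSrab testes it had 10.4, 99.7 and 97.9 CPM at 29 °C, against 7.54, 6.45 and 8.33 CPM at 18 °C, where replicates 2 and 3 at 29 °C were high and replicate 1 was near the 18 °C level. Its interaction was −8.54 ± 0.96 (SE, adjusted p = 0.00873). In CSrab testes LOC101892938 had 13.2, 7.53 and 20.4 CPM at 29 °C, against 7.99, 9.62 and 13.03 CPM at 18 °C, groups that overlap, and its interaction was −5.97 ± 0.71 (SE, adjusted p = 0.0111). Both calls were lost with the replicate block within strain and without any 1 of the CSrab 18 °C libraries, with the fitted term between −9.05 and −8.06 for LOC109613297 and between −6.84 and −5.56 for LOC101892938 over 18 alternatives. In IsoCS testes LOC109613470 (no element) had 1, 0 and 0 counts at 29 °C, against 60, 49 and 160 counts at 18 °C before scaling, at least 28.3-fold lower at 29 °C against a floor of 3 counts per library. In CSrab testes it had 8.88, 14.3 and 14.9 CPM at 29 °C, against 21.8, 18.02 and 20.1 CPM at 18 °C, and the interaction had an adjusted p of 0.0184, lost without 29 °C replicate 1 or 2 of IsoCS, without any 1 of the CSrab 18 °C libraries and with the block.

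**Figure D5:**
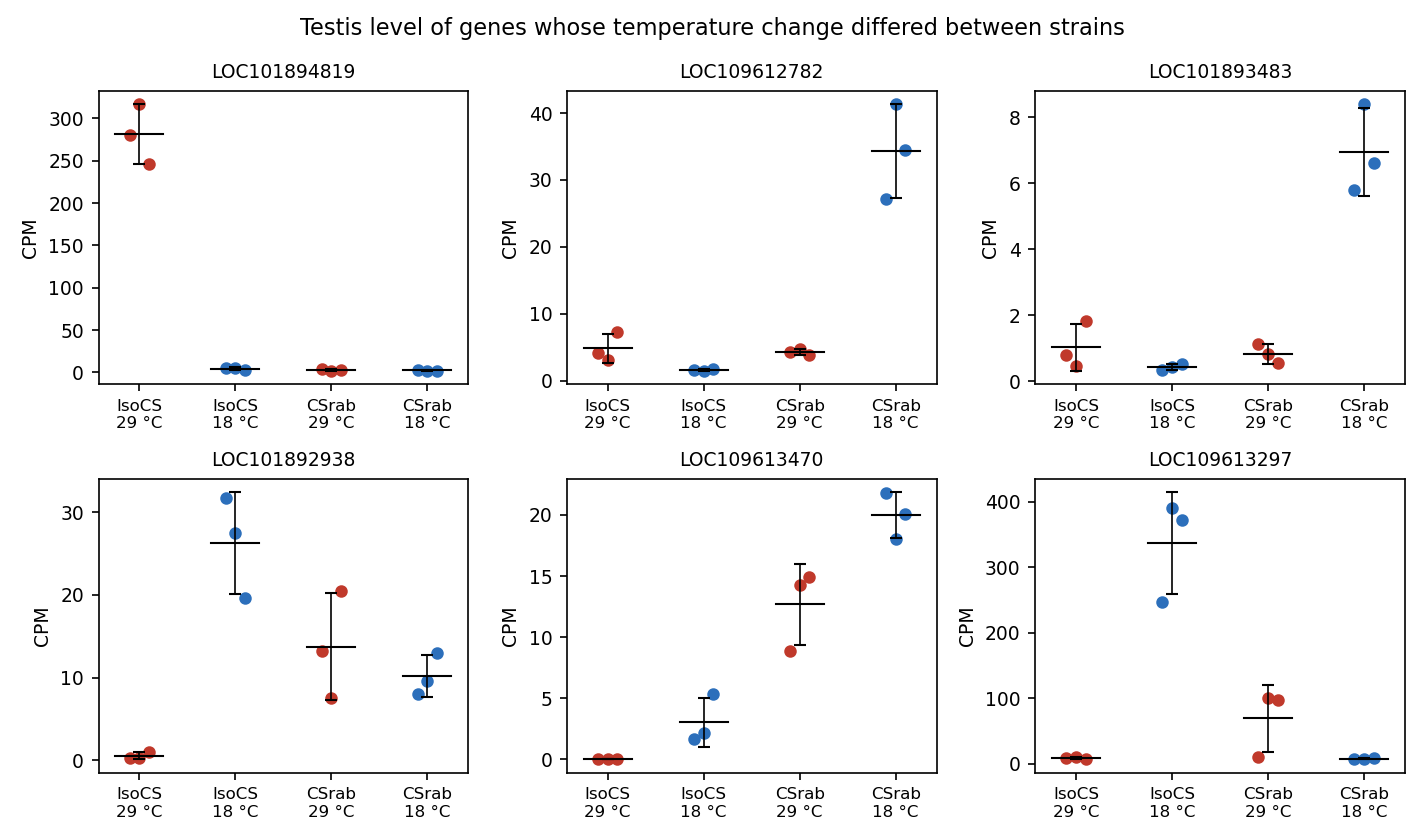
CPM in testis libraries of 6 genes whose temperature effect differed between strains, with each library as a point (29 °C red, 18 °C blue), the mean as a long bar and the SD as whiskers (n = 3). LOC101894819 is high in IsoCS at 29 °C alone, LOC109612782 and LOC101893483 are high in CSrab at 18 °C alone, and LOC109613470 is at or near 0 in IsoCS at 29 °C alone.

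Whether the effect differed between tissues of the same strain was tested over all 24 libraries, as the effect in IsoCS testes minus that in IsoCS heads. It was called for 242 of 14334 genes (1.69%), with a higher value in testis for 94 (0.656%) and a lower value for 148 (1.03%), out of 2538 at an unadjusted p under 0.05. This split depended on the scaling: 38.8% of the calls were higher in testis under TMM, 49.1% of 228 under upper-quartile scaling and 65.5% of 200 under DESeq2 size factors, which placed the median difference of all genes at 0.08 on the log2 scale, against −0.08 under TMM. The split also moved with CSrab libraries, which are in neither group compared. Omitting head 18 °C replicate 3 of CSrab put the share higher in testis at 64.5%, with a median difference of 0.09. Omitting head 29 °C replicate 3 of that strain put this share at 35.4%. Which direction held the majority thus varied between fits. Without 29 °C replicate 3 of testis, 1336 of 14528 genes were called (9.2%), 347 with a higher (2.39%) and 989 with a lower (6.81%) value in testis. This last split was not tried under the other scalings.

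The 3 largest positive differences rested on single libraries in both tissues. In IsoCS heads LOC101888850 had 0.0745, 0.401 and 0.0764 CPM at 29 °C, against 0, 145 and 0 CPM at 18 °C, where replicate 2 at 18 °C was the only library over 1 CPM. Its difference was 12.59 ± 3.07 (SE, adjusted p = 0.0434), and −0.66 without that head library. LOC101889779 (no element) had 193, 1.39 and 3.86 CPM at 29 °C, against 2.49, 2.14 and 2.84 CPM at 18 °C in testes. In heads it had 0.0373, 0.277 and 0 CPM at 29 °C, against 0.0998, 157 and 0.357 CPM at 18 °C, again with 1 library apart. LOC105261620 (element C) had 1076, 21.4 and 84.8 CPM at 29 °C, against 27.2, 6.57 and 25.1 CPM at 18 °C in testes. In heads it had 0.224, 0.0925 and 0 CPM at 29 °C, against 0.0998, 56.7 and 0.357 CPM at 18 °C. In all 3 genes testis 29 °C replicate 1 stood far above the other testis libraries, and head 18 °C replicate 2 far above the other head libraries. The differences of LOC101889779 and LOC105261620, 13.51 and 11.76 (adjusted p = 0.0438 and 0.0291), were 5.61 and 5.31 without head 18 °C replicate 2. They lost their call without that library or testis 29 °C replicate 1, and under 19 and 9 of 30 alternatives in all.

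The 3 largest negative differences came from genes that stood higher at 29 °C in all head libraries. In heads LOC101892912 (element B) had 64.3, 66.3 and 49.6 CPM at 29 °C, against 30.03, 30.2 and 31.3 CPM at 18 °C, a head change that was not called (adjusted p = 0.158). It had 0 counts in the 29 °C testis libraries and at most 5 counts in the 18 °C testis libraries. Its difference (−5.82, adjusted p = 0.0212) rests on almost no testis reads, so the fitted size depends on the prior count and is no bound. In heads the lncRNA LOC109613377 (no element) had 1.16, 1.17 and 0.764 CPM at 29 °C, against 0, 0.101 and 0 CPM at 18 °C. In testes it had 3.59, 3.75 and 6.92 CPM at 29 °C, against 8.14, 6.15 and 9.65 CPM at 18 °C, where replicate 3 at 29 °C lay inside the 18 °C range. Its fitted difference was −5.44 (adjusted p = 0.0122) and was called under all 30 alternatives, with a size that depends on the prior count because the 18 °C heads were at or near 0. In heads LOC109612080 (element E) had 279, 12.5 and 5.85 CPM at 29 °C, against 2.19, 2.01 and 3.33 CPM at 18 °C, where replicate 1 at 29 °C stood alone. In testes it had 109, 80.3 and 147 CPM at 29 °C, against 142, 122 and 161 CPM at 18 °C, groups that overlap. Its difference was −5.64 (adjusted p = 0.0277), and −2.21 without head 29 °C replicate 1, where it was still called. The call was lost under 8 of 30 alternatives, among them the replicate block and the omission of any 1 of the IsoCS head 18 °C libraries.

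Genes with a descriptive symbol were few. Of 53 such genes, 48 were tested, of which 2 were higher and 1 was lower, against 6.62% and 3.81% of all genes. Their median log2 change was 0.22, against −0.0016 over all genes, and 31 of the 48 fitted changes were positive. Without 29 °C replicate 3, 7 were higher (14.6%) and 4 lower (8.33%), against 11.5% and 14.2% of all genes in that fit. The lists below group these symbols, and each is so short that its count of calls is no result about the family.

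Chaperones help proteins fold and are made in larger amounts at high temperature in most organisms. Of 5 chaperone genes 1 rose and 0 fell, against 6.62% higher and 3.81% lower among all genes. The small heat shock protein gene hsp20 (element C) had 53.2, 98.2 and 51.5 CPM at 29 °C, against 37.8, 33.99 and 26.6 CPM at 18 °C, groups that do not overlap, with replicate 2 highest. Its log2 change was 1.04 ± 0.29 (SE, adjusted p = 0.0458), and 1.20 without replicate 3 (adjusted p = 0.0195). The call was lost under 16 of 27 alternatives, among them the replicate block and the omission of any 1 of the other 5 IsoCS testis libraries, with the log2 change between 0.70 and 1.25 over all 27.

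HSP70 (element E), named for the heat-inducible chaperone family, had 4373, 4760.0 and 2516 CPM at 29 °C, against 2697, 2609 and 2097 CPM at 18 °C. Replicate 3 at 29 °C lay inside the 18 °C range, and the change of 0.65 ± 0.25 (SE, adjusted p = 0.117) was not called, while without that library it was 0.89 (adjusted p = 0.0184). The DESeq2 Wald test did not call HSP70 with all 6 libraries (adjusted p = 0.0590). The CCT chaperonin folds actin and tubulin, and tubulin is a main component of the sperm tail. Its 3 subunit genes CCT-delta, CCT-eta and CCT-zeta had log2 changes of 0.01, −0.05 and 0.07, with adjusted p of at least 0.809 and overlapping groups.

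Sxl, an RNA-binding protein gene that is the female switch of sex determination in Drosophila but does not play that part in the house fly, had 31.2, 25.7 and 43.6 CPM at 29 °C, against 55.04, 50.1 and 54.98 CPM at 18 °C. The groups do not overlap, and replicate 3 was the highest of the 29 °C libraries. The log2 change was −0.67 ± 0.20 (SE, adjusted p = 0.0586), which was not called, and −0.91 without replicate 3, which was called (adjusted p = 0.00812). The DESeq2 Wald test called Sxl with all 6 libraries (adjusted p = 0.0228). The gene argos, which in Drosophila encodes a secreted antagonist of the EGF receptor, fell to 2.46, 1.598 and 2.97 CPM at 29 °C, against 4.98, 6.36 and 3.85 CPM at 18 °C, a log2 change of −1.10 ± 0.28 (SE, adjusted p = 0.036). It lost that call under 15 of 27 alternatives, among them the replicate block and the omission of 18 °C replicate 1 or 2 or of 29 °C replicate 1 or 2, with log2 changes between −1.31 and −0.87.

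Among 8 genes of nerve and sense, 5 were tested and 1 rose, against 6.62% higher among all genes. Mda2, a nicotinic acetylcholine receptor subunit gene, had 5.19, 4.695 and 3.26 CPM at 29 °C, against 0.517, 0.795 and 0.6304 CPM at 18 °C. All 29 °C libraries were at least 4.11-fold above all 18 °C libraries, with a log2 change of 2.76 ± 0.41 (SE, adjusted p = 0.00456) that stayed called under 26 of 27 alternatives. In CSrab testes it had 4.88, 1.82 and 2.07 CPM at 29 °C, against 2.23, 2.56 and 2.98 CPM at 18 °C, groups that overlap. The interaction was not called (2.58, adjusted p = 0.108), whereas the effect in IsoCS testes exceeded that in IsoCS heads by 2.66 ± 0.41 (SE, adjusted p = 0.0036). Another receptor subunit gene, nAChRbeta3, had 105, 168 and 92.95 CPM at 29 °C, against 80.5, 77.6 and 60.1 CPM at 18 °C, with a change of 0.75 ± 0.21 (SE, adjusted p = 0.0503) just outside the threshold (adjusted p = 0.0473 with the block) and 0.91 without replicate 3 (adjusted p = 0.0134). The DESeq2 Wald test called nAChRbeta3 with all 6 libraries (adjusted p = 0.0110).

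Of 12 detoxification genes (cytochromes P450 and their electron carriers, glutathione transferases and an esterase), 11 were tested and 0 were called, against 10.4% of all genes. Their median log2 change was 0.42, with 8 positive changes. The P450 gene CYP6D8 had 149.9, 145 and 35.2 CPM at 29 °C, against 34.8, 83.9 and 20.3 CPM at 18 °C. CYP6A24, another P450 gene, had 503, 152 and 55.5 CPM at 29 °C, against 103, 150.3 and 55.9 CPM at 18 °C. In both, replicate 3 was far below the other 29 °C libraries and the groups overlapped. The glutathione transferase gene GST had 2076, 3070.2 and 2253 CPM at 29 °C, against 1837, 1686 and 1761 CPM at 18 °C, groups that do not overlap, and a change of 0.49 ± 0.15 (SE, adjusted p = 0.0644) that was called without replicate 3 (adjusted p = 0.0452). With all 6 libraries it was called by the DESeq2 Wald test (adjusted p = 0.0152). GST was the 1 of the 11 called without replicate 3, against 25.6% of all genes in that fit.

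The antimicrobial peptide genes attacin, defensin-1 and diptericin, which insects switch on after infection, were high in a single library. Summed over these and lysozyme, the level was 6.87, 501.1 and 11.99 CPM at 29 °C, against 16.98, 7.19 and 12.9 CPM at 18 °C. Replicate 2 at 29 °C held nearly all of the excess, with 128, 129 and 244 CPM of the 3 peptides. Of the 4 genes, 0 were called with or without replicate 3, against 10.4% and 25.6% of all genes. The 3 superoxide dismutase genes and the 5 protease inhibitor genes had 0 calls, against 10.4% of all genes, with median changes of 0.07 and −0.08. The yolk protein gene yp3, a fat body and ovary product in flies and the 1 match among the markers of other tissues, had 92.4, 26.1 and 10.3 CPM at 29 °C, against 16.4, 15.9 and 11.5 CPM at 18 °C. It stood high in 29 °C replicate 1 and was not called with all 6 libraries (adjusted p = 0.127). It was called without replicate 3 (adjusted p = 0.0133) and, with all 6, by the DESeq2 Wald test at 0.0498. The part of such libraries in the other results was not tested.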

How the data were processed

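Polyadenylated RNA was sequenced from stranded libraries, per the labels. HISAT2, SAMtools, HTSeq and DESeq2 are named in the submitters' processing notes, with no versions or roles. The genome build is not given in the sources used here, nor is the handling of reads shared by gene copies, so counts of near-identical copies are uncertain. The authors deposited raw counts per gene for 16540 genes, 11725 with a Muller element. The authors also deposited an adjusted p-value of a strain-by-temperature interaction for each gene, not used here. The counts of the 12 testis libraries were fitted in edgeR 4.0.16 (R 4.3.3) by strain and temperature, with TMM scaling, filterByExpr (minimum count 10, minimum total 15) and the quasi-likelihood F test. Adjusted p-values are Benjamini-Hochberg over all genes tested, and SEs were taken as the log2 change over the root of F. A fit of all 24 libraries served the tissue difference. Levels in heads and their changes come from that fit or from the IsoCS head libraries scaled with it. The scripts were tested on simulated data. RefSeq matched 13608 genes to a gene type. Class levels used CSrab libraries only.

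Named genes were the 12 called genes with the largest change in each direction (at least 5 CPM in the higher group, no overlap), 4 in each direction called only without 29 °C replicate 3, the 5 most abundant called in each direction, the 3 largest interaction and tissue terms in each direction and genes of the symbol lists. The members and lists were chosen with earlier results of these data known. Same-numbered IsoCS testis libraries deviated together from their group means (r = 0.225, 0.200 and 0.522 across genes). Differently numbered ones had r between −0.349 and 0.147. The numbers were therefore taken as a possible pairing of the libraries, and a replicate block within strain was run as an alternative. Counts, SEs and adjusted p-values given without mention of a block come from fits that do not use this pairing. DESeq2 1.42.0 was an alternative. Where nothing says that replicates came from separate rearings, p-values measure the spread between these libraries.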

Additional observations from a re-analysis of the deposited data

Results flagged for a closer look

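Listed here are 12 of the genes described above whose temperature effect differed between strains or between tissues by edgeR's quasi-likelihood test of the difference itself. They hold the 3 largest called terms in each direction of each test, among genes at 5 CPM or more in the highest group. Mda2, described above, also had a called difference between tissues and is not among them. The effect in IsoCS testes minus that in CSrab testes was 5.71 for LOC101894819, 4.61 for LOC109612782 and 4.27 for LOC101893483 on the log2 scale. It was −8.54 for LOC109613297, −6.92 for LOC109613470 and −5.97 for LOC101892938. The value for LOC109613470 is a fitted term over a group at or near 0 counts, which depends on the prior count and is no bound. In LOC109612782, LOC101893483, LOC109613297 and LOC101892938 the fitted changes of the strains had opposite signs.

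The effect in IsoCS testes minus that in IsoCS heads was 13.5 for LOC101889779, 12.6 for LOC101888850 and 11.8 for LOC105261620. Each of these 3 rests on testis 29 °C replicate 1 and head 18 °C replicate 2. The difference was −5.82 for LOC101892912, −5.64 for LOC109612080 and −5.44 for LOC109613377, of which LOC109613377 alone was called under all 30 alternatives. LOC101892912 was at or near 0 counts in testes and LOC109613377 at or near 0 in 18 °C heads, so these fitted sizes too depend on the prior count. No cause was tested for any of these differences.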

How the results depend on the processing

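With all 6 libraries, the 1383 temperature calls stayed within 1.5 times under DESeq2 size factors (1390), upper-quartile scaling (1383), no filter on low counts (1152) and a replicate block within strain (1087, of which 856 were among the 1383). They became 2402 under the DESeq2 Wald test, 109 with only the 6 IsoCS testis libraries, 3 with those 6 and the replicate block (2 residual degrees of freedom), 288 at an adjusted p under 0.01 and 174 tested against a fold of 1.5. Without 29 °C replicate 3, DESeq2 gave 4135, DESeq2 size factors in edgeR 3416 and only the 5 remaining IsoCS testis libraries 1283 (671 higher and 612 lower), all added after the data were seen. Leaving out 1 library gave between 370 and 3459 temperature calls, between 3 and 123 interaction calls (fewest without CSrab 18 °C replicate 2) and between 62 and 1336 tissue calls (fewest without head 29 °C replicate 2).

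The 33 interaction calls became 247 under DESeq2, 18 without the filter and 3 with the replicate block. The 242 tissue calls became 672 under DESeq2 and 436 with the block. Same-numbered IsoCS heads had r = −0.129, 0.212 and 0.336. Differently numbered heads were not compared, so whether the numbers pair the heads is not known. The block result of the tissue difference may share only a number there. The tissue difference of LOC101888850 ran between −0.66 without head 18 °C replicate 2, where it reversed, and 13.88 without head 29 °C replicate 2. Causes of these shifts were not tested. With 3 libraries per group, small changes lie below what these data can show, and genes under 3 counts per library give no fold beyond a bound.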

Other observations

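Genes high or low in a single IsoCS testis library were counted. Of the genes at 5 CPM or more in 1 library and over 8 times the level of each of the other 5, 118 were high in 29 °C replicate 1, 45 in 29 °C replicate 2 and 1 in 29 °C replicate 3. The 18 °C replicates held 2, 5 and 0 such genes. By the same rule turned round, 13 genes were low in 29 °C replicate 3 alone, 5 in 29 °C replicate 2 alone and 0 in each other library. Of the 118, 109 were tested and 6 called with all 6 libraries, against 10.4% of all genes tested. For 47 of the 118, 29 °C replicate 3 was the next highest. In a CSrab testis library 71 of them reached 5 CPM, and the share of all genes that did so was not counted. Of the 45, 42 were tested and 1 was called, and attacin, defensin-1 and diptericin were among the 45. The 10 most abundant genes of a library took 12.6%, 16.5% and 8.13% of its counts at 29 °C, against 6.77%, 8.99% and 6.98% at 18 °C. The TMM factors were 0.895, 0.801 and 1.05 at 29 °C, against 1.11, 1.10 and 1.15 at 18 °C, and on both measures 29 °C replicate 3 lay near the 18 °C libraries.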
